A study of Mus musculus with 9 samples.

Results

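The genes described here are the granins Chga, Chgb, Scg2, Scg3 and Scg5 and the peptide processing genes Pcsk1, Pcsk2, Pcsk1n, Cpe and Pam. They were chosen by name, and all 10 were found among the 21536 genes of the table. Granins are acidic proteins of the dense core vesicle, the store from which neurons and endocrine cells release peptides. Inside this vesicle a peptide precursor is cut after pairs of basic residues by the prohormone convertases, Pcsk1 and Pcsk2. Cpe, a carboxypeptidase, then removes the basic residues left at the end of the product, and Pam turns an end glycine into the amide that calcitonin gene-related peptide and substance P need to act. Sensory neurons of the trigeminal ganglion use this route for peptides of pain, itch and vasodilation. Granins are also abundant in pituitary endocrine cells, whose growth hormone and prolactin are not cut by these convertases.

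For each of 9 Dropseq runs, ganglia of many wild type FVB/N mice, males and females aged 3 to 6 weeks in the labels, were pooled and dissociated. A Percoll gradient and a kit that removes glia and other non-neuronal cells preceded the runs. The table holds 30491529 UMIs, or counted transcripts, in 6997 cell barcodes (STAMPs), with a median of 2031 UMIs and a range of 1000 to 190815. The barcodes do not name their run, so all cells formed 1 pooled sample, no test was possible, and each value is given with a 95% interval in parentheses that covers counting error only.

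Neurons were barcodes with 500 to 7500 genes, a UMI of at least 3 of Tubb3, Scn9a, Snap25, Nefl, Nefm and Uchl1 and no Epcam UMI. This kept 3842 barcodes after 13 that also met the pituitary rule were set aside. Each neuron went to the earliest of 6 conditions that it met. The Trpm8 group (244 neurons, median 5671 UMIs) had at least 2 UMIs of the cooling-activated channel Trpm8, the Mrgprd group (379, median 5371) at least 2 of the receptor Mrgprd, the Nppb group (59, median 3413) at least 2 of Nppb and the Cd34 group (320, median 5884) at least 1 of Cd34. The Nefh group (456, median 4125) had at least 5 UMIs of the large neurofilament gene Nefh and none of the capsaicin receptor gene Trpv1. The Calca/Trpv1 group (928, median 3567) had at least 5 UMIs of Calca and at least 1 of Trpv1. Together they made 2386 grouped neurons, and 1456 shallower neurons (median 1832 UMIs) met no condition. None of these conditions used a granin or a processing enzyme.

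Of 16 listed markers that the rule did not use, all 16 had their highest level in the group they were listed for, 11 of them by at least 2-fold over every other group. In UMIs per 1000000 UMIs of a group (CPM), Foxp2 was at 108 in the Trpm8 group and at most 7.48 in the others, and Lpar3 was at 443 in the Mrgprd group and at most 25.9 elsewhere. Il31ra was at 608 in the Nppb group against at most 5.50, and P2ry1 at 305 in the Cd34 group against at most 76.5. S100b was at 1429 in the Nefh group and at most 215 in the others, and Tac1 at 7080 in the Calca/Trpv1 group and at most 2087 in the others. The 5 short of 2-fold were Lxn, Piezo2, Scn1a, Ntrk3 and Pvalb. Of these, Pvalb did not set the Nefh group apart, at 116 CPM in it and 113 in the Trpm8 group, and Ntrk3 was seen in 25.2% of Nefh neurons and 31.3% of Cd34 neurons.

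The cells compared with neurons were 744 barcodes with at least 10% Gh or 3% Prl among their UMIs (median 1987 UMIs), of which 543 passed the limit for growth hormone and are called Gh barcodes, and the other 201 are called Prl barcodes. The sample labels name only trigeminal neurons. Pou1f1, the transcription factor of these pituitary lineages, was at 406 CPM in them and at 0.464 in grouped neurons, and Epcam was at 1508. Free RNA was gauged in 789 erythroid barcodes (median 1273 UMIs), in which haemoglobin genes made at least 10% of UMIs and at most 1 of the 6 neuronal markers had a UMI. Gh and Prl together were at 442 CPM in grouped neurons, and 2711 in erythroid barcodes, so pituitary RNA was found outside the pituitary barcodes. A member at or below its value in the erythroid barcodes is given as not above them, which does not show that the member is absent or set the level of free RNA in neurons. Those barcodes held more Gh and Prl than any neuron group, the highest of which was Cd34 at 726 CPM.

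The 10 members together took 0.55% of the UMIs of grouped neurons. By group the share was 0.45% in Cd34, 0.47% in Trpm8, 0.50% in Nefh, 0.55% in Calca/Trpv1, 0.71% in Mrgprd and 0.72% in Nppb. The similar sums hid different members, as the plot of levels by group shows. In erythroid barcodes the sum was 0.06%. Every neuron group had a higher sum than the erythroid barcodes, while single members did not always do so.

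**Figure D1:**
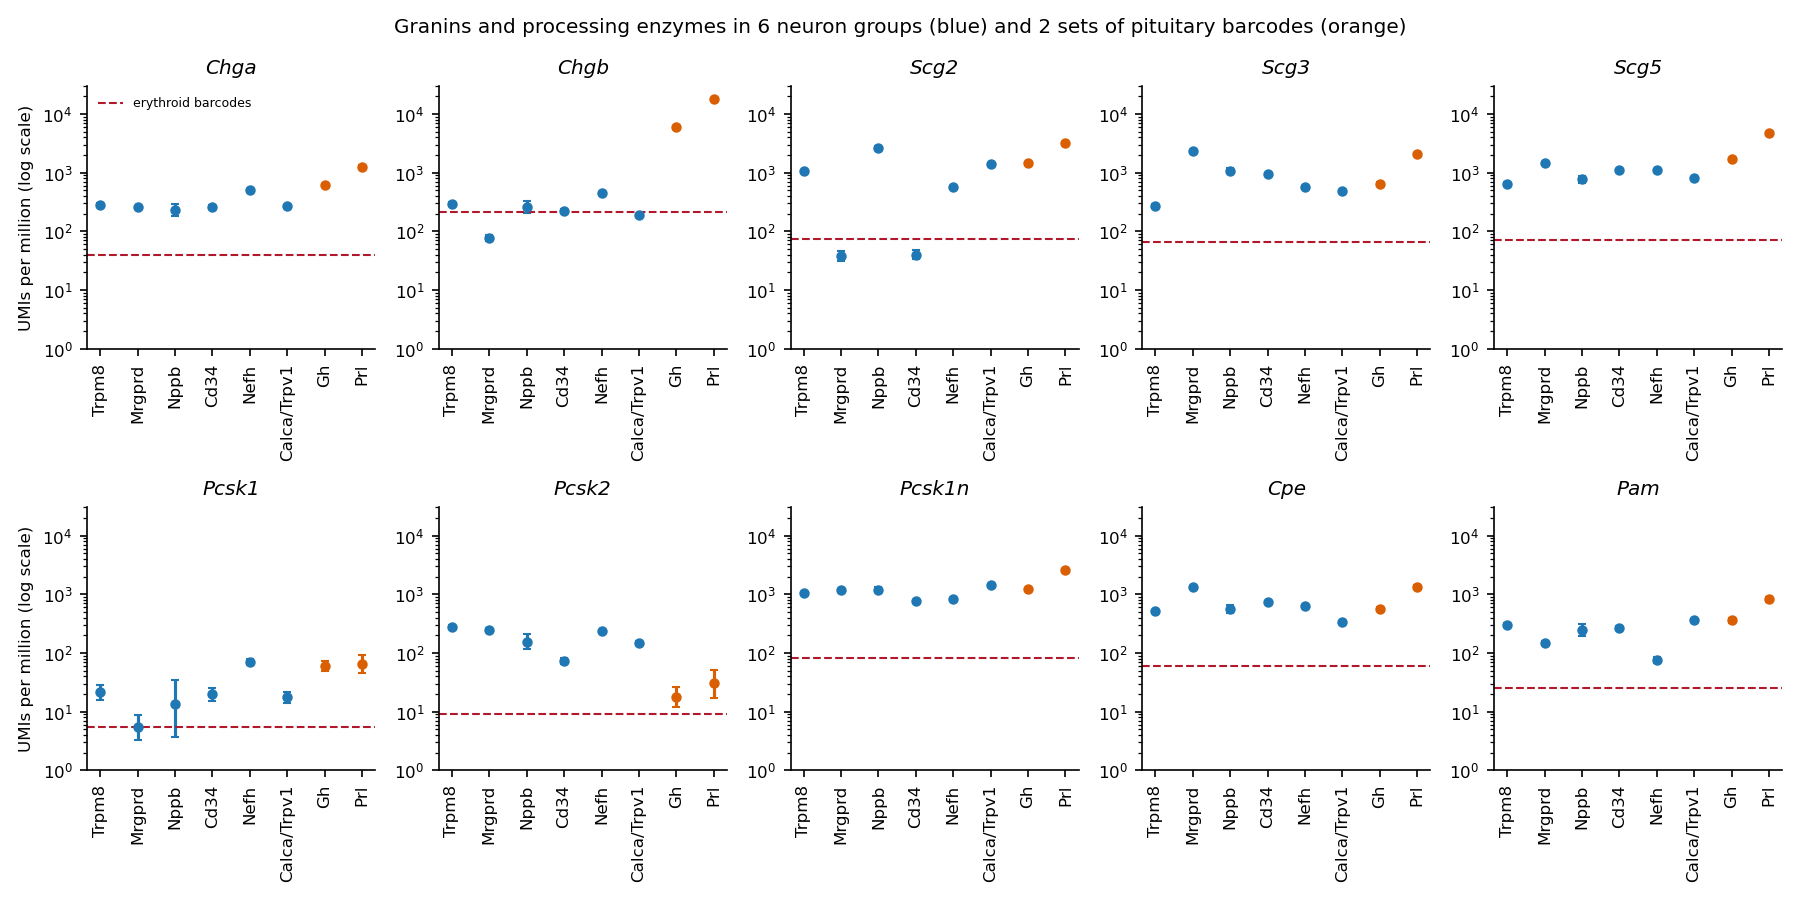
Levels of the 10 members in UMIs per 1000000 UMIs, on a log axis, in the 6 neuron groups (blue) and in the Gh and Prl barcodes (orange), with 95% counting intervals. Dashed lines mark the erythroid barcodes. Scg2 lies under the dashed line in the Mrgprd and Cd34 groups, and Scg3 is at 2381 in the Mrgprd group.

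Between the highest and the lowest neuron group, 9 of the 10 members differed by at least 2-fold. Over all genes with at least 50 UMIs in these groups 62.2% did so, and over the genes with at least 500 UMIs 44.6%. Among genes with at least 2000 UMIs the share was 39.3%, so the count alone says little about the members. The sizes were unequal. Scg2 spanned 68.9-fold, Pcsk1 12.8-fold, Scg3 8.75-fold, Chgb 5.83-fold, Pam 4.77-fold, Cpe 3.96-fold, Pcsk2 3.8-fold, Scg5 2.27-fold and Chga 2.15-fold, and Pcsk1n spanned 1.90-fold. Of genes with at least 500 UMIs, 6.81% reached 10-fold and 1.89% reached 50-fold.

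Scg2 (chromosome 1, 79434669 to 79440120, GRCm38), which encodes secretogranin II, the precursor of secretoneurin, was the most uneven member. It was at 2633 CPM (2451 to 2825) in the Nppb group, 1407 (1374 to 1440) in Calca/Trpv1, 1055 (1012 to 1100) in Trpm8, 576 (551 to 601) in Nefh, 40.0 (33.3 to 47.7) in Cd34 and 38.2 (31.8 to 45.5) in Mrgprd. The order was clear down to the Nefh group, and the intervals of the Cd34 and Mrgprd groups overlapped. Both of these lay below the 73.8 CPM of erythroid barcodes. In the Mrgprd group 72 of the 125 Scg2 UMIs were in 1 barcode, and without it the level was 16.3 CPM. With the barcode highest in the gene left out of each group, a setting chosen after seeing the data, Scg2 spanned 159-fold from Nppb to Mrgprd in place of 68.9-fold. All 59 neurons of the Nppb group had an Scg2 UMI, as did 88.4% in Calca/Trpv1, 86.5% in Trpm8, 48.9% in Nefh, 14.1% in Cd34 and 8.18% in Mrgprd. At an equal depth of 1000 UMIs a cell the shares were 93.2% (83.5 to 98.1) in Nppb, 65.7% (62.6 to 68.8) in Calca/Trpv1, 48.8% (42.3 to 55.2) in Trpm8, 26.8% (22.7 to 31.1) in Nefh, 3.75% (1.95 to 6.46) in Cd34 and 1.58% (0.583 to 3.41) in Mrgprd, against 4.69% (3.32 to 6.41) in erythroid barcodes. Scg2 in the Cd34 and Mrgprd groups was thus not above the erythroid barcodes by level or by share.

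Scg3 (chromosome 9, 75643189 to 75684056), secretogranin III, which helps to carry granins into the vesicle, had a different order. It was highest in the Mrgprd group at 2381 CPM (2329 to 2435), followed by Nppb at 1087 (971 to 1213), Cd34 at 959 (925 to 994), Nefh at 567 (542 to 592), Calca/Trpv1 at 483 (464 to 503) and Trpm8 at 272 (250 to 295). Each step in this order was larger than counting error. The Mrgprd and Cd34 groups, where Scg2 was lowest, were among the 3 groups highest in Scg3. There were 62.3 Scg3 UMIs (52.2 to 75) for each Scg2 UMI in the Mrgprd group and 24.0 (20.0 to 28.9) in Cd34, both over a low Scg2 count, but 0.344 (0.328 to 0.360) in Calca/Trpv1 and 0.258 (0.235 to 0.283) in Trpm8. Without the Mrgprd barcode that held most of its Scg2, the ratio there was 146. The Nppb group was high in both genes.

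Cell by cell the split followed the groups. After thinning to 1000 UMIs, 329 of the 2386 grouped neurons had a UMI of both Scg2 and Scg3, where 431 would if the genes were independent over all of them. Within the Calca/Trpv1 group 208 neurons had both, where independence gives 216, and within the Nefh group 46 had both, where it gives 46.3. In sparse counts such numbers describe detection only.

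**Figure D2:**
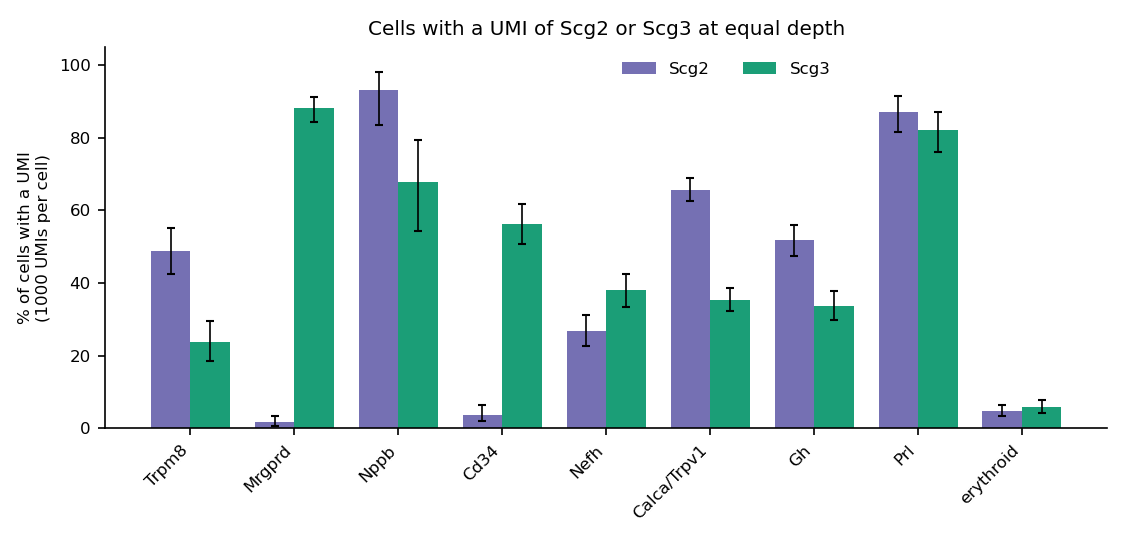
Percentage of cells with at least 1 UMI of Scg2 or Scg3 after every cell was thinned to 1000 UMIs, in the 6 neuron groups, Gh and Prl barcodes and erythroid barcodes. Bars start at 0 and error bars are exact 95% binomial intervals. Scg2 is at 93.2% in the Nppb group and 1.58% in the Mrgprd group, where Scg3 is at 88.1%.

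Chga and Chgb, the chromogranins, were both highest in the Nefh group. Chga (chromosome 12, 102554969 to 102565028), chromogranin A, which drives granule formation, was at 505 CPM (481 to 529) in the Nefh group. In the other groups it was at 285 (Trpm8), 271 (Calca/Trpv1), 263 (Cd34), 257 (Mrgprd) and 234 (Nppb), and neighbours in this order did not differ beyond counting error. Its span of 1.11 on the log2 scale, from Nefh to Nppb, moved to 1.72 with cells weighted equally, 1.82 after thinning, 1.88 without neurons that held a Gh or Prl UMI and 0.89 with at least 5 neuronal markers. Chgb (chromosome 2, 132781278 to 132795079), chromogranin B, was in that group at 451 CPM (429 to 474), with Trpm8 at 298, Nppb at 262, Cd34 at 223, Calca/Trpv1 at 188 and Mrgprd at 77.3 (68.1 to 87.5). Erythroid barcodes held 213 CPM of Chgb (186 to 241), above the Mrgprd group. The interval overlapped that of Calca/Trpv1 (176 to 200). Haemoglobin genes took 61.9% of the erythroid UMIs. Without hormone and haemoglobin genes in the totals, Chgb was at 562 CPM (493 to 639) in erythroid barcodes. That was above all 6 neuron groups, of which Nefh was highest at 453 (431 to 476). The Gh and Prl level of erythroid barcodes was also higher, at 2711 CPM against 560 in Calca/Trpv1 and 314 in Mrgprd. At equal depth 17.1% of Calca/Trpv1, 7.65% of Mrgprd (5.18 to 10.8) and 6.78% of Nppb neurons (1.88 to 16.5) had a Chgb UMI, against 6.34% of erythroid barcodes (4.74 to 8.27). The shares of the Mrgprd and Nppb groups were not above the erythroid share within counting error, although the Gh and Prl level of these groups was lower. At the pituitary ratio of Chgb to Gh and Prl, the Gh and Prl of the Mrgprd group correspond to 9.37 CPM of Chgb and those of the erythroid barcodes to 81.0. In the Nppb group 43 of the 77 Chgb UMIs were in 1 barcode, and without it the level was 120 CPM.

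Scg5 (chromosome 2, 113776362 to 113829121) encodes 7B2, the protein that Pcsk2 needs to mature. It was at 1485 CPM (1444 to 1528) in the Mrgprd group, 1122 in Cd34 and 1112 in Nefh, which did not differ beyond counting error, 821 in Calca/Trpv1, 775 in Nppb and 653 (619 to 688) in Trpm8. Pcsk1n (chromosome X, 7919822 to 7924410), which encodes proSAAS, an inhibitor of Pcsk1, had the narrowest range of the 10, from 1438 CPM (1404 to 1471) in Calca/Trpv1 through 1199 in Nppb, 1162 in Mrgprd, 1036 in Trpm8 and 821 in Nefh to 755 (725 to 786) in Cd34. Both genes were read in most neurons of every group. In erythroid barcodes Scg5 was at 72.0 CPM and Pcsk1n at 82.9.

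The convertases took different groups. Pcsk2 (chromosome 2, 143546156 to 143816285) was at 277 CPM (255 to 300) in Trpm8, 249 (233 to 267) in Mrgprd, 232 (216 to 248) in Nefh, 156 (114 to 208) in Nppb, 149 (139 to 161) in Calca/Trpv1 and 72.9 (63.7 to 83.1) in Cd34. The 3 highest groups followed each other within counting error, and Cd34 stood apart as the lowest. Pcsk1 (chromosome 13, 75089826 to 75134861) was sparse, with 460 UMIs in all grouped neurons, of which 244 were in the Nefh group. Its level was 70.2 CPM (61.7 to 79.6) in Nefh, 21.2 in Trpm8, 20.0 in Cd34, 17.5 in Calca/Trpv1, 13.6 in Nppb, where it rested on 4 UMIs, 3 of them in 1 barcode, and 5.50 (3.26 to 8.70) in Mrgprd, beside 5.40 in erythroid barcodes. When hormone and haemoglobin genes were left out of the totals, Pcsk1 in erythroid barcodes was at 14.3 CPM (5.25 to 31.1). The intervals of all groups but Nefh overlapped this. A Pcsk1 UMI was seen in 29.2% of Nefh neurons, 4.75% of Mrgprd neurons and 0.507% of erythroid barcodes. At equal depth these became 7.02% in Nefh (4.85 to 9.76), 1.06% in Mrgprd (0.288 to 2.68) and 0.507% in erythroid barcodes.

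The balance of the convertases can be compared between groups as Pcsk2 UMIs per Pcsk1 UMI, since 1 tag is counted at the end of each transcript. It was 45.3 (28.5 to 76.9) in Mrgprd, 13 (9.63 to 18.1) in Trpm8, 11.5 (4.20 to 44.0) in Nppb, 8.54 (6.83 to 10.8) in Calca/Trpv1, 3.65 (2.74 to 4.91) in Cd34 and 3.30 (2.86 to 3.82) in Nefh. The Pcsk1 count in the Mrgprd group, 18 UMIs, was at the erythroid level, so the ratio there has a denominator not above theirs. On totals without hormone and haemoglobin genes, Pcsk1 in Trpm8, Nppb, Cd34 and Calca/Trpv1 overlapped the erythroid interval too. In the Nppb group 4 Pcsk1 UMIs carry the ratio. Cd34 reached a low ratio with the lowest Pcsk2, and Nefh with the highest Pcsk1. In all 6 groups Pcsk2 UMIs outnumbered those of Pcsk1.

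**Figure D3:**
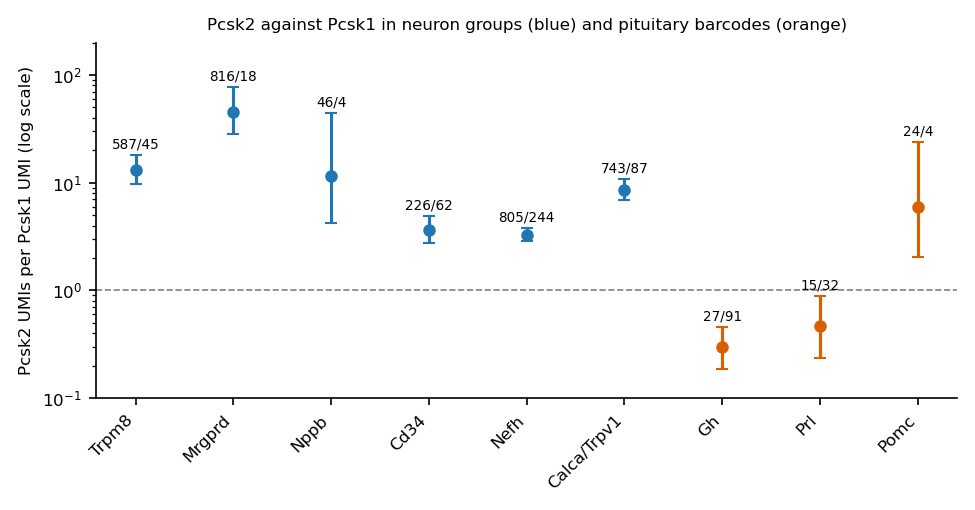
Pcsk2 UMIs per Pcsk1 UMI, on a log axis, in the 6 neuron groups (blue) and in Gh, Prl and Pomc barcodes (orange), with exact 95% intervals. The counts are written above each point, and the dashed line marks 1. The ratio is 3.30 in the Nefh group and 0.297 in Gh barcodes, and in the Mrgprd group, the highest point, it rests on 18 Pcsk1 UMIs at the erythroid level.

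The finishing enzymes differed in their order of groups. Cpe (chromosome 8, 64592542 to 64693054) was at 1327 CPM (1288 to 1367) in Mrgprd, 740 in Cd34, 635 in Nefh, 564 in Nppb, 514 in Trpm8 and 335 (319 to 352) in Calca/Trpv1. Pam (chromosome 1, 97795114 to 98095646) was at 366 CPM (349 to 383) in Calca/Trpv1, 305 in Trpm8, 264 in Cd34, 248 in Nppb, 148 in Mrgprd and 76.8 (67.9 to 86.6) in Nefh. The group highest in Pam, Calca/Trpv1, was the lowest in Cpe. All groups were above the 59.4 CPM of Cpe and the 25.2 CPM of Pam in erythroid barcodes. Once hormone and haemoglobin genes were out of the totals, this held for Cpe but not for Pam in Nefh. Pam was then at 77.1 (68.1 to 86.9) in Nefh and 66.7 (44.3 to 96.4) in erythroid barcodes, which overlapped.

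Each group was also set against all other grouped neurons, with 2-fold as the limit. The Mrgprd group had 2 members higher, Scg3 by 4.03-fold and Cpe by 2.5-fold, where 5.66% of genes were higher, and 3 lower, Chgb, Scg2 and Pcsk1, where 16.2% were lower. The Nppb group had 1 higher, Scg2 by 3.88-fold (6.13% of genes), and none lower (19.3%). The Nefh group had 2 higher, Pcsk1 by 4.47-fold and Chgb by 2.40-fold (5.82% of genes), and 1 lower, Pam by 3.63-fold (7.84% of genes). The Calca/Trpv1 group had 1 higher, Scg2 by 3.28-fold (6.76%), and 2 lower, Cpe by 2.46-fold and Scg3 by 2.30-fold (8.34%). The Trpm8 group had 1 lower, Scg3 by 3.76-fold (14.7%), and the Cd34 group 2 lower, Scg2 by 21.5-fold and Pcsk2 by 2.91-fold (10.9%), with no member higher in either (3.83% and 4.51%). These make 15 differences. With the barcode highest in the gene left out of each group all 15 were kept, and Pcsk1 was also lower in the Nppb and Calca/Trpv1 groups, for 17. Pam in Calca/Trpv1 was just short of the limit at 1.96-fold higher and Chga in Nefh at 1.89-fold higher.

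Neurons were next ordered by the substrates. The UMIs of the 20 listed peptide precursors in the table, among them Calca, Tac1, Adcyap1, Gal, Nmb, Nppb, Sst and Cartpt, were summed in each of the 3842 neurons after thinning to 1000 UMIs. There were 763 neurons with none, 1246 with 1 to 4, 834 with 5 to 19 and 999 with at least 20. From the neurons with none to those with the most, Scg2 was at 125, 370, 1460 and 1598 CPM, Pcsk1n at 518, 711, 1052 and 1335, and Pam at 138, 189, 329 and 378. These 3 members were higher at each step of this sum, although the last step of Scg2 and the outer steps of Pam were within overlapping intervals. Chga was at 400, 368, 312 and 267 CPM and Pcsk1 at 41.9, 23.3, 22.8 and 13, lower at each step. Scg3 (625, 1230, 731 and 384) and Cpe (699, 839, 486 and 299) peaked at 1 to 4 precursor UMIs. Neighbouring bins of Chga and of Pcsk1 had overlapping intervals, while the lowest and highest bins of each did not overlap. With the amidated precursors alone in the sum (917, 1181, 868 and 876 neurons in the same bins), Scg2 was at 248, 403, 1530 and 1529 CPM and Pam at 143, 191, 369 and 361, so neither was higher at the last step. The bins differ in their mix of groups: Calca was part of the sum and of the rule for the Calca/Trpv1 group, and how far that mix carries these values was not tested.

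**Figure D4:**
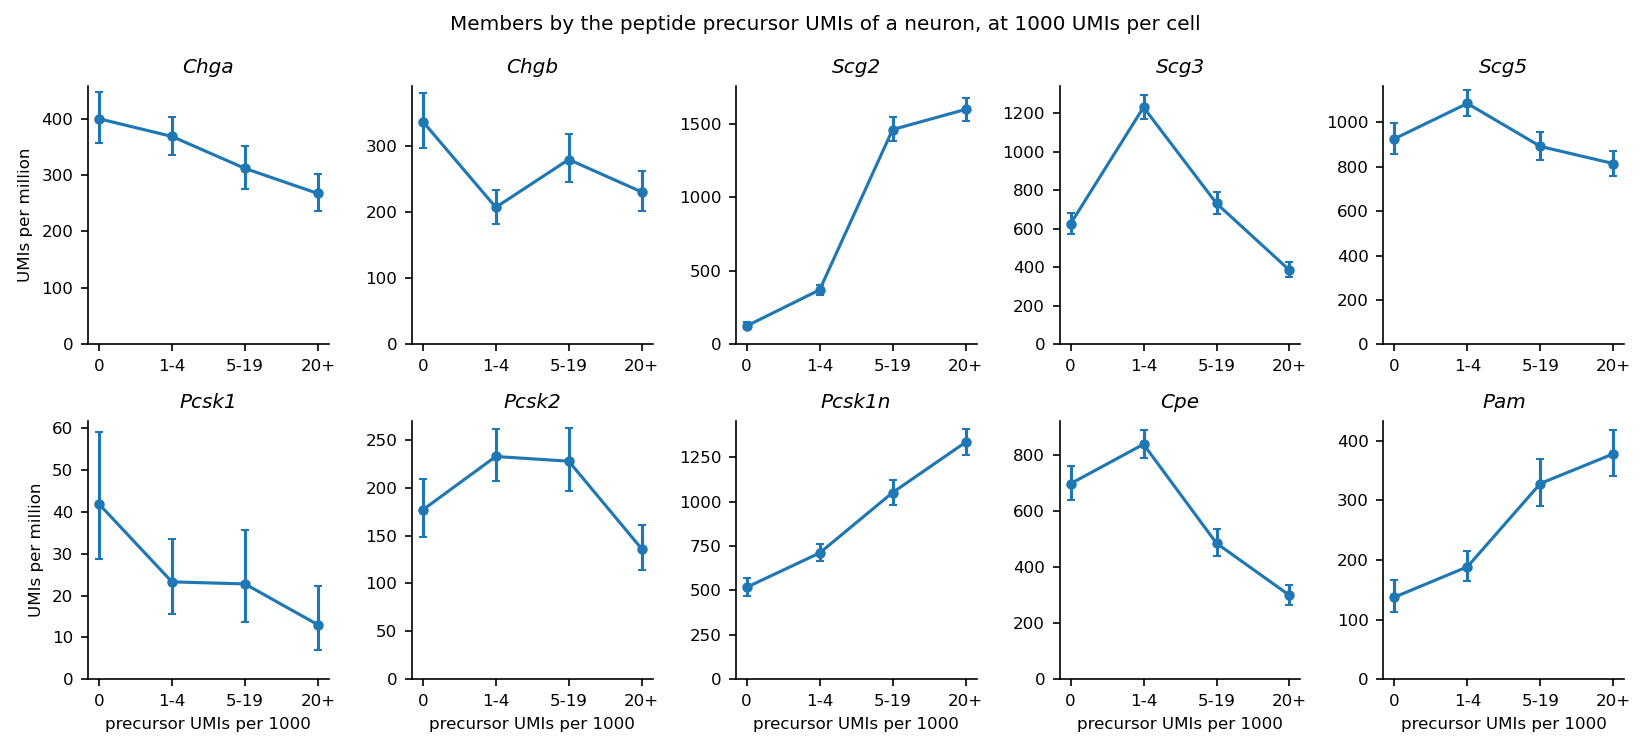
Level of each member, in UMIs per 1000000 UMIs, in 3842 neurons thinned to 1000 UMIs and binned by their summed peptide precursor UMIs (0, 1 to 4, 5 to 19, 20 or more), with 95% counting intervals. Axes start at 0 and differ between panels. Scg2, Pcsk1n and Pam are higher in each successive bin, and Pam goes from 138 to 378.

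The members as a sum were higher in pituitary barcodes, mainly through Chgb. The 10 members took 1.26% of the UMIs of Gh barcodes and 3.39% of those of Prl barcodes, against 0.55% in grouped neurons. Without Chgb the other 9 took 0.66% in Gh barcodes and 1.62% in Prl barcodes against 0.52% in grouped neurons, or 1.27-fold and 3.10-fold. Scg3 was lower in Gh barcodes than in grouped neurons, at 641 and 930 CPM, and so was Cpe, at 564 and 683. With hormone and haemoglobin genes left out of the totals both turned, Scg3 to 1026 and 935 and Cpe to 902 and 686, and the other 9 members together stood at 2.02-fold in Gh and 3.63-fold in Prl barcodes. Of the 10 members, 5 were at least 2-fold higher in pituitary barcodes than in grouped neurons, where 12.3% of all genes were higher, and 1 was at least 2-fold lower, where 38.6% of genes were lower. The median log2 ratio over all 11982 genes compared was -0.61, and Gh and Prl took 296350 CPM of the pituitary barcodes. The median over the members was 1.09. With hormone and haemoglobin genes left out of the totals, 21.4% of genes were higher and 25.8% lower, the median was -0.06, and 7 members were higher, Pcsk1n and Pam being the ones added.

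Chgb showed the widest gap. It was at 8854 CPM (8724 to 8985) in pituitary barcodes, with 6008 in Gh and 17678 in Prl barcodes, against 241 (234 to 249) in grouped neurons, a 36.7-fold ratio and a log2 ratio of 5.20 (5.15 to 5.25). All 201 Prl barcodes had a Chgb UMI even at 1000 UMIs a cell, as did 77.5% of Gh barcodes and 19.7% of grouped neurons. The next ratios were far smaller. Scg2 was at 1874 CPM in pituitary barcodes and 711 in grouped neurons (log2 ratio 1.40), Chga at 770 and 315 (1.29), Scg5 at 2473 and 1038 (1.25) and Pcsk1 at 61.4 and 26.7 (1.2, 0.90 to 1.49). Pam (0.97), Pcsk1n (0.50), Cpe (0.15) and Scg3 (0.08) were within 2-fold of the neurons.

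For Scg2 and Scg3 the neuron average hides the groups. Scg2 in the Nppb group, at 2633 CPM, lay between the Gh barcodes (1444) and the Prl barcodes (3209), and Scg3 in the Mrgprd group, at 2381, was above both (641 and 2057). With hormone and haemoglobin genes left out of the totals, Scg3 was at 2390 (2337 to 2443) in the Mrgprd group and 2416 (2269 to 2571) in Prl barcodes, which did not differ beyond counting error. No neuron group came near the pituitary level of Chgb. For Pcsk1, the Nefh group at 70.2 CPM and the pituitary barcodes at 61.4 (51.0 to 73.2) had overlapping intervals. With hormone and haemoglobin genes left out of the totals the order turned, to 70.4 (61.9 to 79.9) in Nefh and 90.2 (75 to 107.6) in pituitary barcodes, and the intervals still overlapped.

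Pcsk2 was the exception. It was at 21.0 CPM (15.1 to 28.3) in pituitary barcodes against 187 (181 to 194) in grouped neurons, an 8.92-fold difference and a log2 ratio of -3.16 (-3.63 to -2.72). In Prl barcodes 6 of the 15 Pcsk2 UMIs were in 1 barcode. A Pcsk2 UMI was seen in 3.49% of pituitary barcodes and 1.14% of erythroid barcodes, whose level was 9.01 CPM (4.32 to 16.6). The pituitary level was 2.33-fold (1.1 to 5.2) that of the erythroid barcodes, on 42 and 10 UMIs. Gh barcodes alone were at 1.98-fold (0.93 to 4.58) and Prl barcodes at 3.41-fold (1.43 to 8.48). This excess depended on the totals. Leaving hormone and haemoglobin genes out gave 30.8 CPM (22.2 to 41.6) in pituitary and 23.8 (11.4 to 43.8) in erythroid barcodes, which overlapped. At equal depth the shares were 1.61% (0.836 to 2.80) and 0.634% (0.206 to 1.47), which overlapped. The ratio of Pcsk2 to Pcsk1 UMIs was 0.297 (0.186 to 0.460) in Gh barcodes and 0.469 (0.236 to 0.891) in Prl barcodes, against 7.01 (6.35 to 7.74) in grouped neurons. The 2 cell kinds thus held the convertases in opposite balance. Scg5, whose product serves Pcsk2, was nonetheless higher in pituitary barcodes.

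**Figure D5:**
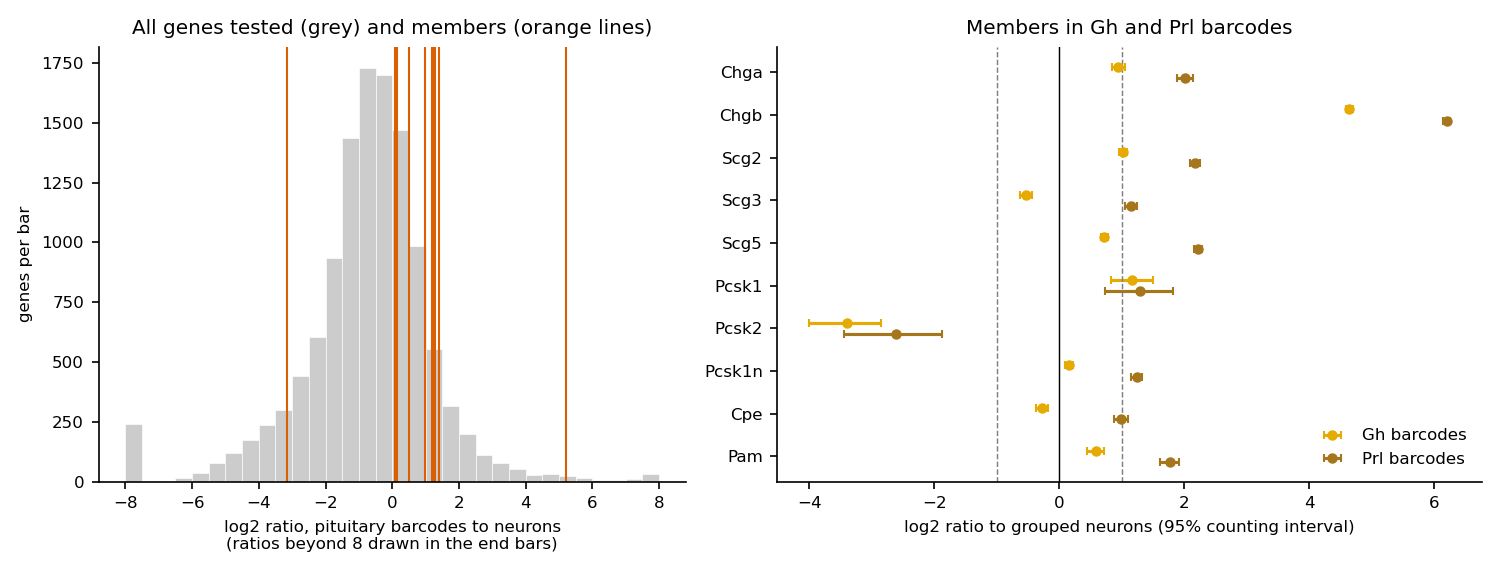
Left, number of genes (of 11982) by log2 ratio of pituitary barcodes to grouped neurons, with the 10 members as orange lines. Right, log2 ratio of each member in Gh and in Prl barcodes to grouped neurons with 95% counting intervals and dashed lines at 2-fold. Chgb stands at the right and Pcsk2 at the left in both sets.

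Prl barcodes exceeded Gh barcodes in most members. Of the 9 members with enough UMIs, 8 were at least 2-fold higher in Prl barcodes, where 11.1% of genes were, and none was lower, where 2.83% were. The 8 went from 2.09-fold for Chga to 3.21-fold for Scg3, while Pcsk1 stood at 65.5 CPM in Prl and 60.1 in Gh barcodes. Against grouped neurons, 8 members were at least 2-fold higher in Prl barcodes (13.4% of genes) and 3 in Gh barcodes (11.2%), and Pcsk2 was lower in both (34.2% and 42.6% of genes). With hormone and haemoglobin genes left out of the totals the counts were 9 (17.4%) and 6 (22.1%), with Chga, Scg5 and Pam added in Gh barcodes and Cpe in Prl barcodes. Gh and Prl together took 351686 CPM in Gh barcodes and 124776 in Prl barcodes. With hormone and haemoglobin genes left out of the totals, 3 members (Chgb, Scg3 and Scg5) stayed at least 2-fold higher in Prl barcodes, where 2.95% of genes did. All 10 neuronal markers were found in both sets, with a summed level of 2089 CPM in Prl barcodes, 788 in Gh barcodes and 20487 in grouped neurons. In the 109 Prl and 320 Gh barcodes with a UMI of at most 1 of the 6 neuronal markers used by the rule, an alternative chosen after seeing the data, 8 members were again at least 2-fold higher in Prl barcodes, where 15.1% of genes were. The median log2 ratio over all genes was 0.46 there and 0.37 over all Prl and Gh barcodes.

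Promoters were searched because 5 of the 10 members were at least 2-fold higher in pituitary barcodes. Scg3, Pcsk1n, Cpe and Pam were within 2-fold, and Pcsk2 was lower. RefSeq promoter windows on GRCm38.p6, from 250 bases before to 50 after the start of transcription, were given for 9 members, not for Cpe. The letters TGACGTCA, the cAMP response element, were searched on both strands, as were the 6 letters TGACGT that lie within them. The full element was found in Chgb, Scg2 and Pcsk1, 3 of 9, and in 2.03% of 27025 genes with a window. Of the genes compared between pituitary barcodes and neurons it was found in 3.92%, with 4.2% of those at least 2-fold higher, 3.34% of those lower and 4.29% of the rest. The 6 letters were found in these and in Chga and Scg5, 5 of 9, and in 8.37% of genes. The sequences below are read 5′ to 3′ on the strand of the gene, with the motif in capitals, and are shown because these 5 genes are the 5 that were at least 2-fold higher in pituitary barcodes. That set depends on the setting: Pam, at 1.96-fold, joined it without neurons that held a Gh or Prl UMI, and Pam and Pcsk1n joined it with hormone and haemoglobin genes out of the totals, and neither window held the 6 letters.
Chga: ggcggtcctaTGACGTaatttcctgg
Chgb: ggctgctccgTGACGTCAgggctgagcg
Scg2: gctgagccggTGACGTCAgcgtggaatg
Scg5: aggaggtaaaTGACGTtcataggggt
Pcsk1: caggtagatcTGACGTCAagagatggct

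In order, these are chr12:102554887-102554912 on the plus strand, chr2:132781560-132781587 on the plus strand, chr1:79440077-79440104 on the minus strand, chr2:113829251-113829276 on the minus strand and chr13:75089769-75089796 on the plus strand. The motif ended 38, 64, 60, 169 and 70 bases before the RefSeq start. In GENCODE the Chgb and Scg2 genes start further upstream, and there these windows lie in the untranslated part of an exon, whereas the other 3 lie outside the gene. Scg5 and Pcsk1 each held the 6 letters a further time. Among the genes compared between pituitary barcodes and neurons, 14.1% of those with a window held TGACGT. It was found in 17.4% of the genes at least 2-fold higher in pituitary barcodes, in 11.4% of those at least 2-fold lower and in 15.4% of the rest. A match describes the letters and not a bound site.

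Other genes of the vesicle were compared in the same way. Of 17 listed dense core vesicle genes in the table, all with enough UMIs, 2 were at least 2-fold higher in pituitary barcodes (12.3% of all genes) and 9 lower (38.6%), with a median log2 ratio of -1.01 beside -0.61 over all genes. Resp18, a granule protein of endocrine cells, was at 586 CPM in pituitary barcodes and 119 in grouped neurons, and Sytl4, a granule tether, at 154 and 0.928. The calcium sensors of release Syt7 (59.4 in pituitary barcodes and 218 in neurons) and Syt9 (15.5 and 91.0) were among the lower. Among neuron groups Resp18 spanned 68.4-fold, from 12.3 CPM in Trpm8 and 12.8 in Mrgprd to 839 in Nppb, with 19.8 in erythroid barcodes. Ptprn, a membrane protein of the vesicle, went from 22.6 in Mrgprd to 387 in Nppb, while Syt7 went from 37.4 in Nppb to 569 in Mrgprd. The Nppb group was thus highest in Scg2, Resp18 and Ptprn, and the Mrgprd group, highest in Scg3 and Cpe, was also highest in Syt7. The sorting receptor gene Sort1 was at 66.5 CPM in the Trpm8 group and at most 26.1 in the others.

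Among 20 other processing enzymes, 15 had enough UMIs, with 3 higher in pituitary barcodes (12.3% of all genes), 5 lower (38.6%) and a median log2 ratio of -0.33 beside -0.61 over all genes. The convertase Pcsk6 was at 36.9 CPM in pituitary barcodes and 0.522 in grouped neurons, and Ece1, endothelin converting enzyme, at 190 and 37.1. Cpd, a carboxypeptidase of the trans-Golgi network, was at 12 in pituitary barcodes and 64.9 in neurons. Qpct, which forms the pyroglutamate at the start of some peptides, was at 131 CPM in Prl and 31.0 in Gh barcodes. Within neurons Qpct was at 48.9 in the Calca/Trpv1 group, with no UMI in the Mrgprd group, which allows up to 0.917 CPM. Cpxm2, a carboxypeptidase relative, was at 144 CPM in the Trpm8 group and at most 12.9 in the others.

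The listed substrates are mainly sensory neuropeptides and hold neither Gh nor Prl. Of 13 peptide precursors with enough UMIs, 12 were at least 2-fold lower in pituitary barcodes (38.6% of all genes) and Pomc was higher, at 753 CPM against 13.6. Calca and Nppb were used to choose the neurons, and Sst passed the filter almost wholly through the Nppb group, so their direction was partly fixed by the choice of genes and cells, and without these 3 the count was 9 of 10. The median log2 ratio over all 13 was -3.98, which is the ratio of Calca itself. Tac1, the precursor of substance P, was at 7080 CPM in the Calca/Trpv1 group and 356 in Mrgprd, and Gal, the precursor of galanin, at 757 and 3.97. Adcyap1, the precursor of PACAP, was at 777 and 16.5 in the same groups, whereas Nmb, the precursor of neuromedin B, was highest in the Mrgprd group at 939. Sst and Vip were highest in the Nppb group, at 1203 and 285 CPM.

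At 1000 UMIs a cell, a neuron showed a median of 3 of the 10 members in the Trpm8, Cd34, Nefh and Calca/Trpv1 groups and 4 in Mrgprd and Nppb. A Prl barcode showed 7 and a Gh barcode 4, and 69.7% of erythroid barcodes showed none. By Pearson correlation of log2(CPM + 10) over the 6 neuron groups and the Gh and Prl barcodes, 8 points that share libraries, the genes most like Chgb among 6234 were Mettl9 (r = 0.99), N4bp2l2 and Tor1b (both 0.99). For Scg5 they were Os9 (0.98), Sf3b5 (0.97) and Ccdc104 (0.94), for Pcsk2 G6pdx, Tacc2 and Smap2 (each 0.97), and for Scg2 the best was 1110058L19Rik at 0.94. With 8 points and this many genes, high values arise for many genes.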

How the data were processed

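The authors sequenced 9 Dropseq runs and deposited 1 table of UMI counts per gene and barcode, without normalization. The submitters' processing notes name bcl2fastq 2.17, STAR 2.5.3a, Seurat 1.4.0.16 and the build mm10. From these counts, UMIs were summed over the cells of a group and divided by its total (CPM), with exact Poisson intervals for levels, Clopper-Pearson intervals for shares and exact conditional binomial intervals for ratios, all at 95% and for counting error only. Intervals were computed with Python 3.11.15, numpy 2.4.6 and scipy 1.17.1, and figures drawn with matplotlib 3.10.9. No p-value is given because the pooled table is 1 sample. A difference was called at 2-fold among genes with at least 50 UMIs in the cells compared. The limit of a count of 0 is 3 UMIs of the group's total. Thinning drew 1000 UMIs from each cell at random, and every barcode had at least that many. No doublet caller was run, and 325 neurons met the conditions of 2 or more groups. Leaving these out took Trpm8 from 244 to 95 neurons, Mrgprd from 379 to 282, Cd34 from 320 to 247 and Nppb from 59 to 53. Nefh and Calca/Trpv1 lost none. Levels of the Trpm8 group, and its Pcsk2 to Pcsk1 ratio, thus come from neurons most of which met a further condition. Without them Pcsk1 was also at least 2-fold lower in Trpm8, Cd34, Nppb and Calca/Trpv1. Of the barcode sequences, 6 occurred in 2 columns each. Gene positions are from GENCODE (GRCm38). The call was tested on simulated data. The members and the gene lists were chosen with earlier results of these data known. The 10 members were always named. From each gene list, values are given for at most 8 genes with at least 50 UMIs. These are among the genes with the widest ratio between neuron groups or between pituitary barcodes and neurons. Some further precursors are named without values. Of the listed genes, Ccdc186 and Ucn were not found in the table by name. A further background set of barcodes and 1 listed marker are not reported here. Other totals, thresholds, depths and cell sets were tried as alternatives.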

Additional observations from a re-analysis of the deposited data

Results flagged for a closer look

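The following values come from barcodes outside the comparisons. In 25 barcodes with at least 3% Pomc among their UMIs that met neither the pituitary nor the neuron rule, there were 24 Pcsk2 and 4 Pcsk1 UMIs, a ratio of 6 (2.06 to 23.8), against 0.341 (0.235 to 0.488) in the pituitary barcodes. Pcsk2 was at 391 CPM (251 to 582) there. Pax7, a transcription factor of the intermediate lobe, was at 114 CPM in these barcodes and had no UMI in Gh barcodes, Prl barcodes or the 6 neuron groups, which allows levels of up to 0.603 to 10.2 CPM. It was seen in 24% of the 25 barcodes, where 3 UMIs make 48.9 CPM. The genes Tbx19 and Crhr1 were at 81.6 and 32.6 CPM there, in 20% and 4% of the barcodes. The difference from the pituitary barcodes was not tested. In the 1382 barcodes that met no rule, Chgb was at 911 CPM and Scg5 at 974 CPM, above the 213 and 72.0 CPM of erythroid barcodes. These barcodes include the one with 190815 UMIs, and what cells they hold was not tested.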

How the results depend on the processing

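No paired analysis was possible because the barcodes carry no run and the table is 1 pooled sample. The log2 ratio of the summed members, pituitary barcodes to grouped neurons, was 1.71 (1.69 to 1.72). It was 2.25 with hormone and haemoglobin genes left out of totals, 1.61 with limits of 20% Gh and 6% Prl, 1.76 without neurons that held a Gh or Prl UMI, 1.72 with all neurons and 1.62 in pituitary barcodes with at most 1 neuronal marker, the last 2 chosen after seeing the data. These counts of members stayed within 1.5 times their value under the alternatives run: 5 to 7 members higher and 1 lower in pituitary barcodes, 8 to 10 spanning 2-fold among neuron groups, and 15 to 21 differences of a group from the other neurons, with all 15 kept each time. The 8 members higher in Prl than in Gh barcodes were 3 with hormone and haemoglobin genes left out of totals, 6 at 2000 UMIs or more and 8 under the others. The 3 members higher in Gh barcodes than in neurons were 6 with those genes left out, an alternative chosen after seeing the data. Among 295 single log2 ratios 293 kept their sign, and Scg3 (-0.54 to 0.13) and Cpe (-0.27 to 0.40) in Gh barcodes against neurons turned with those genes left out. Of these ratios 21 moved by over 1.5 times: the 10 in Gh barcodes under that setting, and 11 between the highest and lowest neuron group of Chga, Scg2 or Pcsk1. Scg2 reached 8.80 on the log2 scale, from 6.11, without neurons of 2 or more groups, and Pcsk1, at 3.67, went to 2.82 after thinning and 4.55 without neurons that held a Gh or Prl UMI. Chga, at 1.11, went from 0.89 with 5 neuronal markers to 1.88 without those neurons. Leaving out the barcode highest in the member, chosen after seeing the data, moved Scg2 to 7.31. Pcsk1 rests on 4 UMIs in the Nppb group, so its place there was not detectable at this depth.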
